A study of Homo sapiens with 32 samples.

Results

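The MYC-MAX-MXD network is the group of basic helix-loop-helix leucine zipper proteins that share the partner MAX or the related partner MLX. Its 9 members here are MYC (ENSG00000136997.15), MAX (ENSG00000125952.18), MXI1 (ENSG00000119950.20), MXD1 (ENSG00000059728.10), MXD3 (ENSG00000213347.10), MXD4 (ENSG00000123933.14), MNT (ENSG00000070444.14), MGA (ENSG00000174197.16) and MLX (ENSG00000108788.11), which were chosen by gene symbol among protein-coding genes and not by any measured value. This choice was made with earlier results of these data known. The members are 9 of the 19815 protein-coding genes and of the 60554 genes of all classes in the count tables, and all 9 passed the filter on low counts in both cell lines. MYC binds DNA as a heterodimer with MAX at the E-box CACGTG and activates genes of ribosome biogenesis, nucleotide synthesis and growth. MXI1, MXD1, MXD3, MXD4 and MNT compete with MYC for MAX and bring SIN3 and histone deacetylases to the same sites, and MGA is the MAX-binding subunit of a Polycomb complex, PRC1.6. MLX dimerises with MXD1, MXD4 and MNT and with the Mondo proteins MLXIP and MLXIPL, which respond to glucose metabolites. MXI1 is a known target of the hypoxia-inducible factors, and MYC translation and stability are known to respond to growth factor signalling.

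Total mRNA and polysomal mRNA, which sediments with ribosomes in a sucrose gradient, were measured in 2 human breast lines. MCF10A is an immortalised epithelial line without tumour-forming capacity, and the triple-negative line MDA-MB-231 was derived from a carcinoma. Cells were kept at 21% O2 (normoxia, N) or at 0.5% O2 for 24 h (hypoxia, H), and PP242, an inhibitor of the mTOR kinase dissolved in DMSO, was given at 2.5 µM for 3 h in normoxia (NPP) or in hypoxia (HPP). Each of the 8 groups per line had 2 libraries labelled as replicates 1 and 2, 32 libraries in all, and cells without PP242 received the vehicle DMSO. The total and the polysomal library of one treatment and replicate carry the same number in their titles, which was read here as the culture. The comparisons ask how hypoxia, mTOR inhibition and both together alter each mRNA relative to the other mRNAs of total or of polysomal RNA. Each library was scaled to its own total, so a polysomal rise or fall does not give the amount of an mRNA on ribosomes. H, HPP and NPP were each compared with the same N libraries, so their values are not independent of each other. Levels are in CPM, which scales the counts of each library to the same total after TMM normalisation, and in these bulk libraries fewer cells and less RNA per cell cannot be told apart.

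Because MXI1, MNT and MLX changed in both lines, as MYC did, which had no window, their promoter windows are shown here with the letters that MYC-MAX type dimers and hypoxia-inducible factors recognise. The windows run from 250 bases before to 50 bases after an annotated start (RefSeq, GRCh38.p14). With MYC left out, 8 of the 9 members had at least 1, with 13 windows in all. Capitals mark, on either strand, the E-box CACGTG and the core letters of the hypoxia response element, which are ACGTG or, in its other form, GCGTG. An E-box holds the first of these cores on both strands. MXI1 had 3 windows. Window 1, chr10:110207355-110207654 on the plus strand, held none of these letters and is not printed. Window 2 (chr10:110209981-110210280) and window 3 (chr10:110225746-110226045), both on the plus strand, each held core letters of the hypoxia response element without an E-box. MNT (chr17:2401011-2401310, minus strand) and MLX (chr17:42566850-42567149, plus strand) each held an E-box.

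MXI1 window 2: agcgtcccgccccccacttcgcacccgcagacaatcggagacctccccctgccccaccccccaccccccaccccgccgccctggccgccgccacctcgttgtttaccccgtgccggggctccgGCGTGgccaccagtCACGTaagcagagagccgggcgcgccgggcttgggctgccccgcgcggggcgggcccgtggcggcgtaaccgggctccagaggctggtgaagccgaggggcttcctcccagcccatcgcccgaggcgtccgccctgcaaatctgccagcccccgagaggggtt

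MXI1 window 3: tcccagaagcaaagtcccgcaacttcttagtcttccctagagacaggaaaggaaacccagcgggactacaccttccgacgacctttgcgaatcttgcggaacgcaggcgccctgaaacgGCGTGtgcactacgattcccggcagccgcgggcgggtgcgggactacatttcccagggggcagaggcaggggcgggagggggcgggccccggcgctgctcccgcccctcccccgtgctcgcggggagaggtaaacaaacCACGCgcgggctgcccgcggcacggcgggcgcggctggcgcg

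MNT window: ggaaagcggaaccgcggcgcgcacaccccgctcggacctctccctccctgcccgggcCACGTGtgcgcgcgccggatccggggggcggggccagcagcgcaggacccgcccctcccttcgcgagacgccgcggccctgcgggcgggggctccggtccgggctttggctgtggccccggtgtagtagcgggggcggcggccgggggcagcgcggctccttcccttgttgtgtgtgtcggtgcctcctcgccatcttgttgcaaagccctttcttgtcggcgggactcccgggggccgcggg

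MLX window: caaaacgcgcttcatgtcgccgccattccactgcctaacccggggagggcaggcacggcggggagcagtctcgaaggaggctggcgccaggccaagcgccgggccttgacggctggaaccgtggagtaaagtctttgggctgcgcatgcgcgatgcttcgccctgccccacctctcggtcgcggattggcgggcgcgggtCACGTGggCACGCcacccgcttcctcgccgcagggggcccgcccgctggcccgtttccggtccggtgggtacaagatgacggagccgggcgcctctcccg

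The E-box was present in 3 of the 13 member windows, those of MXD4, MNT and MLX. It was present in 7.26% of the 35116 RefSeq windows of the same length, which included chromosome 8. ACGTG was present in 21.4% and GCGTG in 36.5% of all windows, and at least 1 of both in 48.4%, against 10 of the 13 member windows. These matches describe the letters and were not tested for binding.

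The libraries held between 18340916 and 46032327 counts, with a median of 34561484, of which 97.4% to 99.2% fell on protein-coding genes. For MCF10A 13124 genes were tested, and for MDA-MB-231 13510. The biological coefficient of variation, the typical spread between replicates, was 0.325 for MCF10A but 0.150 for MDA-MB-231, where equal changes were easier to detect. MYC had 3316 to 25190 counts per library, whereas the lowest libraries held 40 counts of MXD1 and 31 of MGA. The oxygen labels were checked on CA9, a hypoxia-inducible carbonic anhydrase, which was at 7.73 to 26.9 CPM in the 8 normoxic and at 522 to 1356 CPM in the 8 hypoxic libraries of MCF10A. In MDA-MB-231 CA9 was at 0.0568 to 1.02 CPM in normoxic and at 13.03 to 34.6 CPM in hypoxic libraries, so every library matched its oxygen label. MCF10A libraries held basal keratins (KRT5 1190.0 to 3268 CPM, KRT14 458 to 4203 CPM), but the defining epithelial genes CDH1 (at most 0.361 CPM), EPCAM (at most 0.461 CPM) and TP63 (at most 0.226 CPM) were close to 0, and vimentin was at 1691 to 9370 CPM. The labels and growth conditions do not explain these low epithelial values, and the comparisons between lines rest on the line labels. MDA-MB-231 libraries had VIM at 3113 to 6082 CPM, and KRT5, KRT14 and KRT17 did not exceed 6.36 CPM. The leukocyte gene PTPRC and the endothelial gene PECAM1 did not exceed 2.17 CPM in any library.

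Libraries of MCF10A differed in how long and short transcripts were covered. The median log2 deviation of the longest decile of genes minus that of the shortest was −1.27 in replicate 2 of total RNA in NPP, −0.79 in replicate 2 of total RNA in HPP, −0.88 in replicate 1 of polysomal RNA in N and −0.68 in replicate 1 of polysomal RNA in H, against −0.37 to 0.26 over all MDA-MB-231 libraries. At the other end 6 libraries of MCF10A lay between 0.37 and 0.68, with the highest value in replicate 1 of total RNA in NPP. Counts of called members are therefore given with and without these libraries.

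A gene was called at an adjusted p under 0.05 in edgeR's quasi-likelihood test over all genes of the line. Calls are those of this test, with the filter on low counts, TMM scaling and no replicate block, unless another tool or setting is named. Below, a treatment is also said to lie above or below N where both its libraries did, which is common among all genes tested. Over the comparisons, 14.9% to 30.5% of genes lay above N in MCF10A and 17.4% to 33.0% in MDA-MB-231. The shares below N were 17.5% to 32.3% and 20.2% to 34.0%. Where all PP242 libraries are said to lie above or below all others of a line and fraction, no share over all genes is given. With hypoxia alone, MXI1 rose in 3 of the 4 tests (total and polysomal RNA of each line), and no other member was called in H in this test. When PP242 was added in hypoxia, MYC, MXI1 and MNT rose in both fractions of both lines and MLX fell in polysomal RNA of both lines, while MXD3 and MXD4 passed the test in MDA-MB-231. With PP242 in normoxia, MXD3 and MNT rose in both fractions and MLX fell in polysomal RNA of MDA-MB-231, and MYC rose in polysomal RNA of MCF10A. MAX, MXD1 and MGA were called in no treatment comparison in this test, although other settings called MXD1 as given below. The fold changes of all members are drawn by comparison.

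**Figure D1:**
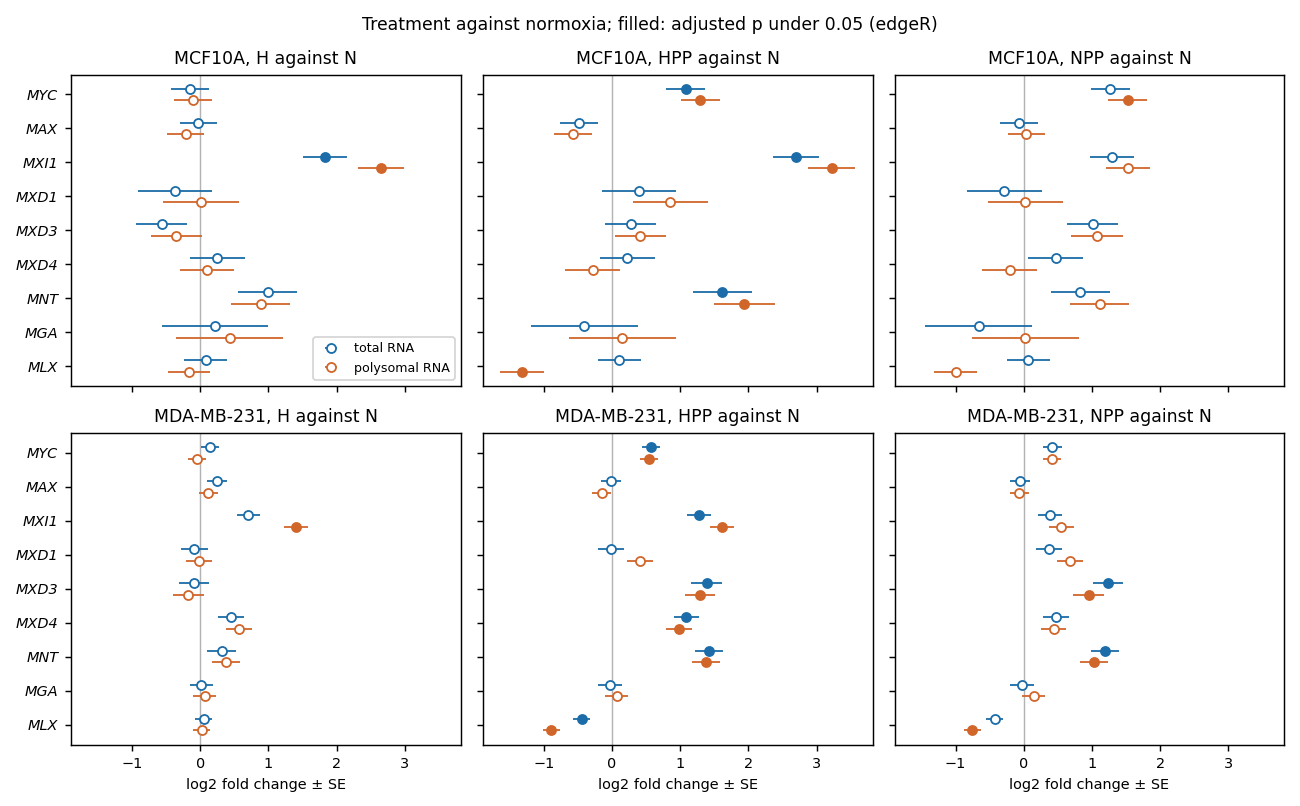
Log2 fold change of the 9 members against N (horizontal axis, bars ± SE) in H, HPP and NPP, for total and polysomal RNA of each line, with 2 libraries per group. Filled points passed an adjusted p of 0.05. MXI1 in HPP lies between 1.28 and 3.22 in the 4 fraction and line panels, and MLX in polysomal HPP lies at −1.32 and −0.89.

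In MCF10A under hypoxia alone, 1 of 9 members was called in total RNA, MXI1, which rose, where 1.39% of the genes tested rose and 0.145% fell. The median log2 fold change was 0.08 over the members and −0.03 over all genes tested. In polysomal RNA 1 of 9 members, again MXI1, rose, where 1.33% of genes rose and 0.16% fell, with a median of 0.01 over the members and −0.07 over all genes tested. Under HPP, 3 of 9 members rose in total RNA (MYC, MXI1 and MNT), where 7.43% of genes rose and 7.47% fell, with a median of 0.28 over the members and −0.01 over all genes tested. In polysomal RNA under HPP the same 3 members rose and MLX fell, where 10.2% of genes rose and 11.9% fell, with a median of 0.42 over the members and −0.04 over all genes tested. Under NPP no member was called in total RNA by edgeR, with 3 members at an unadjusted p under 0.05 and MYC and MXI1 called by DESeq2, where 0.343% of genes rose and 0.305% fell, with a median of 0.47 over the members and 0.02 over all genes tested. With the replicate number as a block within each fraction, MYC was called there at 1.25 (adjusted p = 0.0360). With an offset for transcript length, added after the data were seen, MXI1 was called there at 1.41 (adjusted p = 0.0270). In polysomal RNA under NPP 1 of 9 members, MYC, rose, where 0.472% of genes rose and 0.351% fell, with a median of 0.04 over the members and −0.04 over all genes tested. With the block within each fraction, MXI1 (adjusted p = 0.0151), MXD3 (0.0383), MNT (0.0335) and MLX (0.0295) were also called there.

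These counts moved with single libraries of MCF10A. Of the 27 pairs of a member and a treatment, 4 were called in total RNA, and 2 without replicate 2 of total RNA in HPP and 4 without replicate 2 of total RNA in NPP. In polysomal RNA 6 of 27 were called, and 2 without replicate 1 of polysomal RNA in N and 5 without replicate 1 of polysomal RNA in H. Without any 1 of the 6 libraries with high values of the length measure there were 3 to 5 calls in total and 4 to 7 in polysomal RNA. MXI1 in polysomal HPP stayed called without any 1 library.

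In MDA-MB-231 under hypoxia alone, no member was called in total RNA by edgeR, with MXI1 and MXD4 at an unadjusted p under 0.05 and MXI1 called by DESeq2 and under other settings of edgeR given below, where 0.977% of genes rose and 0.289% fell. The median log2 fold change was 0.14 over the members and −0.02 over all genes tested. In polysomal RNA 1 of 9 members, MXI1, rose, where 1.78% of genes rose and 0.511% fell, with a median of 0.06 over the members and 0.01 over all genes tested. Under HPP 5 of 9 members rose in total RNA (MYC, MXI1, MXD3, MXD4 and MNT) and 1 fell (MLX), where 6.31% of genes rose and 6.91% fell, with a median of 0.57 over the members and −0.05 over all genes tested. The same 5 members rose and MLX fell in polysomal RNA, where 9.71% of genes rose and 9.73% fell, with a median of 0.54 over the members and 0.01 over all genes tested. Under NPP 2 of 9 members, MXD3 and MNT, rose in total RNA, where 0.377% of genes rose and 0.178% fell, with a median of 0.38 over the members and −0.01 over all genes tested. In polysomal RNA both rose and MLX fell, where 0.762% of genes rose and 1.19% fell, with a median of 0.44 over the members and −0.00 over all genes tested. Over the 27 pairs of a member and a treatment, 8 were called in total and 10 in polysomal RNA of MDA-MB-231.

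To compare levels between genes, CPM was divided by the length of each gene's merged exons in kb, on a scale set over all 32 libraries. In normoxic total RNA of MCF10A, MYC was the most abundant member (36.4 ± 2.23 CPM per kb, SD, n = 2), followed by MLX (28.9 ± 3.07), MXD4 (15.9 ± 2.14), MAX (8.60 ± 0.0482) and MXD3 (7.92 ± 1.31). MXI1 (2.38 ± 0.239), MNT (1.65 ± 0.257), MXD1 (0.729 ± 0.149) and MGA (0.502 ± 0.0734) were lower. MAX and MXD3 were closer to each other than their spread, and the other neighbours in this order were further apart than the larger of their SDs. In normoxic total RNA of MDA-MB-231 the order was MYC (26.1 ± 0.359 CPM per kb), MLX (20.8 ± 1.199), MAX (10.3 ± 0.421), MXD3 (5.00 ± 0.192), MXD4 (3.89 ± 0.0749), MXI1 (3.04 ± 0.424), MXD1 (2.43 ± 0.382), MGA (1.22 ± 0.0359) and MNT (1.13 ± 0.0853). MYC stood above its partner MAX in both lines. MGA and MNT of MDA-MB-231 were apart by about their spread. MXD4 was the third in MCF10A and the fifth in MDA-MB-231. In normoxic polysomal RNA MLX (34.9 ± 6.96 CPM per kb) and MYC (34.1 ± 4.80) of MCF10A lay within their spread, and MXI1 (1.202 ± 0.280) was among the lowest members of MDA-MB-231.

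**Figure D2:**
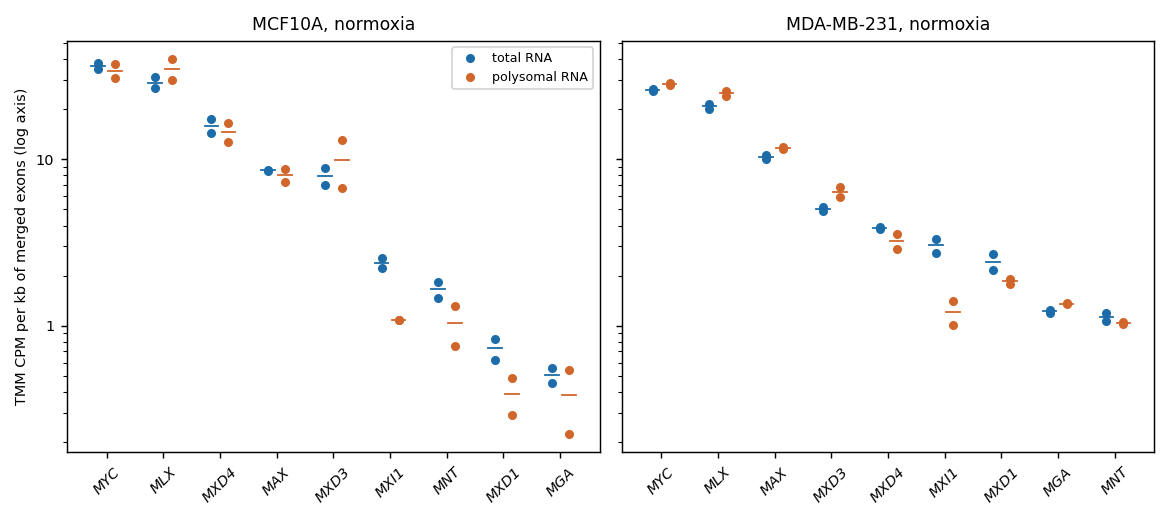
Normoxic level of each member in CPM per kb of merged exons (log axis), for total and polysomal RNA of each line, with a point for each of 2 libraries and members ordered by total RNA. MYC and MLX lie highest in both lines, and MGA is among the lowest.

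The paralogs MYCN and MYCL, which can take the place of MYC, were at most 0.114 and 0.468 CPM in any library, and the Mondo protein gene MLXIPL was at most 0.748 CPM. The CPM of every member in all 32 libraries is drawn by group.

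**Figure D3:**
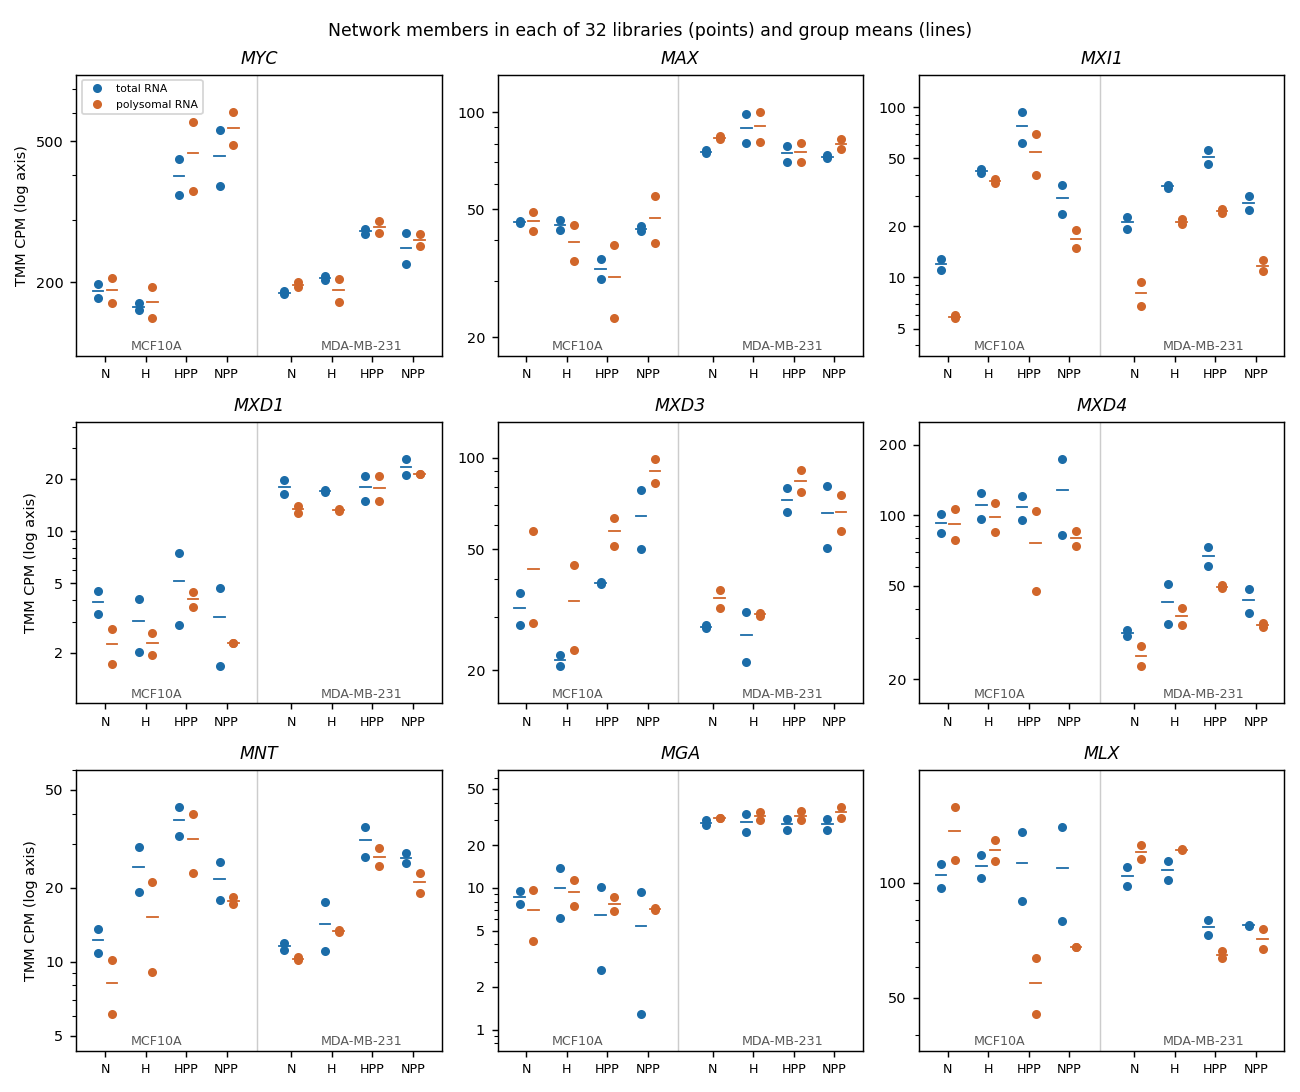
CPM of the 9 members (1 panel each, log axis) in all 32 libraries, by line and treatment. Points are single libraries, lines are means of 2 libraries, blue is total and orange polysomal RNA. MXI1 is lowest in N in both fractions of both lines, and MYC is highest in the PP242 groups.

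MYC, the activator of the network, rose with HPP in both fractions of both lines and was called in no comparison of H with N. Its replicates in MCF10A total RNA were at 198 and 180.2 CPM in N, 167 and 175 in H, 353 and 446 in HPP and 374 and 536 in NPP. In polysomal RNA of MCF10A they were at 174 and 205 CPM in N, 158 and 194 in H, 360.5 and 568 in HPP and 605 and 487 in NPP. In both fractions every PP242 library lay above every library without PP242, and the ranges of H and N overlapped in polysomal RNA, while both H values lay slightly below N in total RNA. In HPP MYC rose by 1.08 ± 0.28 (adjusted p = 0.0257) on the log2 scale in total RNA and by 1.29 ± 0.29 (adjusted p = 0.00838) in polysomal RNA. In NPP the values were 1.27 ± 0.29 (adjusted p = 0.0872) in total RNA, which was not called, and 1.53 ± 0.29 (adjusted p = 0.0320) in polysomal RNA, which was, but not with RLE size factors (1.51, adjusted p = 0.0553). The total RNA difference in NPP was called by edgeR with a block within each fraction (1.25, adjusted p = 0.0360) and by DESeq2 (1.31, adjusted p = 0.00295). The HPP call in total RNA was lost without replicate 2 of HPP or either replicate of N in total RNA (adjusted p up to 0.194), and that in polysomal RNA without replicate 2 of HPP or replicate 1 of N in polysomal RNA (up to 0.0932). The NPP call in polysomal RNA was kept in 5 of the 16 fits that each left out 1 library, and its adjusted p reached 0.321.

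MYC in total RNA of MDA-MB-231 was at 185 and 188 CPM in N, 203 and 208 in H, 274 and 282 in HPP and 225 and 275 in NPP. The polysomal values were 199.9 and 194 CPM in N, 204 and 176 in H, 276 and 298 in HPP and 252 and 274 in NPP. As in MCF10A, the PP242 libraries lay above all others in both fractions. In HPP MYC rose by 0.57 ± 0.13 (adjusted p = 0.0122) in total RNA and by 0.54 ± 0.13 (adjusted p = 0.0117) in polysomal RNA. In NPP it was at 0.42 ± 0.13 (adjusted p = 0.228) in total and 0.42 ± 0.13 (adjusted p = 0.156) in polysomal RNA, neither called by edgeR, while DESeq2 called the total RNA difference (0.44, adjusted p = 0.0475). The HPP call in total RNA was lost without replicate 2 of HPP or either replicate of N (up to 0.0807), and that in polysomal RNA without replicate 2 of HPP or replicate 2 of N (up to 0.0720). In H, MYC stood between −0.15 ± 0.28 and 0.14 ± 0.13 over the 4 tests, and none was called.

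MAX (chr14:65006174-65102695, minus strand, GRCh38), the shared partner of MYC and its antagonists, passed the test in no comparison with N. MAX in total RNA of MCF10A was at 46.0 and 45.3 CPM in N, 43.2 and 46.3 in H, 35.2 and 30.3 in HPP and 42.8 and 44.3 in NPP. The MDA-MB-231 libraries of total RNA held MAX at 76.4 and 74.8 CPM in N, 80.3 and 99.1 in H, 78.8 and 70.4 in HPP and 72.1 and 73.8 in NPP. Both HPP values of MCF10A lay below the other 6 total RNA libraries, whereas in MDA-MB-231 the HPP and N values overlapped. The fold changes in HPP were −0.48 ± 0.28 (adjusted p = 0.284) in total and −0.57 ± 0.28 (adjusted p = 0.155) in polysomal RNA of MCF10A, and −0.02 ± 0.14 and −0.15 ± 0.14 in MDA-MB-231. Of the exon bases of MAX, 16.1% are shared with other genes, chiefly FNTB on the opposite strand, and no strand was stated for the libraries, so reads of both genes cannot be told apart there.

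MXI1 (chr10:110207605-110287365, plus strand), a MAX-binding antagonist of MYC whose promoter windows are shown above, was the member with the largest fold change in HPP in both fractions of MCF10A and in polysomal RNA of MDA-MB-231. MXI1 in total RNA of MCF10A was at 12.8 and 11.04 CPM in N, 40.9 and 43.6 in H, 94.0 and 61.2 in HPP and 35.01 and 23.5 in NPP. On MCF10A polysomes MXI1 was at 5.97 and 5.73 CPM in N, 35.8 and 37.7 in H, 69.4 and 39.8 in HPP and 14.9 and 18.9 in NPP. In both fractions the 3 treatments each lay wholly above N, with HPP highest, H between and NPP lowest of the treated groups. In H, MXI1 rose by 1.82 ± 0.32 (adjusted p = 0.0159) in total and 2.65 ± 0.33 (adjusted p = 0.00175) in polysomal RNA. In HPP it rose by 2.70 ± 0.33 (adjusted p = 0.000495) in total and 3.22 ± 0.34 (adjusted p = 0.000180) in polysomal RNA. In NPP the values were 1.30 ± 0.32 (adjusted p = 0.120) and 1.53 ± 0.32 (adjusted p = 0.0556), neither called by edgeR. DESeq2 called both (adjusted p = 0.00275 in total and 0.000318 in polysomal RNA), edgeR with the transcript length offset called both (0.0270 and 0.0150), and the polysomal difference also passed in edgeR with RLE size factors (0.0486), with no filter on low counts (0.0484) and with a replicate block (0.0457).

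MXI1 in total RNA of MDA-MB-231 was at 22.7 and 19.3 CPM in N, 35.1 and 33.6 in H, 56.0 and 46.3 in HPP and 30.1 and 24.9 in NPP. The polysomal values were 9.36 and 6.75 CPM in N, 20.6 and 21.9 in H, 23.9 and 25.2 in HPP and 12.6 and 10.9 in NPP. H, HPP and NPP again lay above N in both fractions, without overlap, and the polysomal values were lower than the total values in each group. In H, MXI1 was at 0.71 ± 0.17 (adjusted p = 0.0693) in total RNA, not called, and rose by 1.41 ± 0.18 (adjusted p = 0.000858) in polysomal RNA. The total RNA difference was called by DESeq2 (adjusted p = 0.0126) and by edgeR with no filter on low counts (0.0146), with a replicate block (0.0219) and with a block within each fraction (0.0260). In HPP it rose by 1.28 ± 0.17 (adjusted p = 0.000454) in total and 1.61 ± 0.18 (adjusted p = 4.01e-05) in polysomal RNA, and in NPP it was at 0.38 ± 0.17 (adjusted p = 0.465) and 0.55 ± 0.18 (adjusted p = 0.172). The polysomal H call of MCF10A was lost when only the libraries compared were fitted (2.73, adjusted p = 0.0697). Leaving out any 1 library kept the HPP calls in both fractions of both lines and the polysomal H calls of both lines, whereas the H call in total RNA of MCF10A was lost without any 1 of its 4 libraries of N and H (adjusted p up to 0.259).

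MXD1, MXD3 and MXD4 are MAX-binding repressors, of which MXD1 is known from differentiating cells. MXD3 and MXD4 rose with HPP in MDA-MB-231 in both fractions, and MXD1 was called in neither line without a change of tool or setting. MXD3 (chr5:177301461-177312757, minus strand) in total RNA of MDA-MB-231 was at 28.1 and 27.6 CPM in N, 21.3 and 31.1 in H, 66.1 and 79.5 in HPP and 50.6 and 80.4 in NPP. The polysomal values were 36.7 and 32.1 CPM in N, 30.1 and 30.8 in H, 77.3 and 90.7 in HPP and 57.4 and 75.4 in NPP. All PP242 libraries lay above all others in both fractions. MXD3 rose by 1.39 ± 0.23 (adjusted p = 0.00167) in total and 1.29 ± 0.22 (adjusted p = 0.00151) in polysomal RNA in HPP, and by 1.23 ± 0.23 (adjusted p = 0.0231) and 0.95 ± 0.22 (adjusted p = 0.0400) in NPP. Both HPP calls held without any 1 library. The NPP call was lost in total RNA without replicate 2 of NPP or either replicate of N (up to 0.259), and in polysomal RNA it was kept in 5 of 16 such fits (up to 0.275). MXD3 shares 43.7% of its exon bases with PRELID1 and RAB24, so its values are uncertain where the counting could not separate these genes.

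MXD3 in total RNA of MCF10A was at 35.7 and 28.05 CPM in N, 22.4 and 20.6 in H, 39.0 and 38.3 in HPP and 50.0 and 78.4 in NPP. Both HPP and both NPP values lay above N, but HPP exceeded the higher N value by less than the gap between the N replicates. The log2 fold changes were 0.28 ± 0.37 (adjusted p = 0.686) in HPP and 1.01 ± 0.38 (adjusted p = 0.386) in NPP in total RNA, and 0.42 ± 0.37 (adjusted p = 0.457) and 1.08 ± 0.38 (adjusted p = 0.215) in polysomal RNA. With a block within each fraction edgeR called the polysomal NPP difference (1.15, adjusted p = 0.0383).

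MXD4 (chr4:2247432-2262109, minus strand) in total RNA of MDA-MB-231 was at 30.4 and 32.4 CPM in N, 51.1 and 34.3 in H, 60.7 and 73.1 in HPP and 38.4 and 48.4 in NPP. The polysomal values were 27.7 and 22.7 CPM in N, 34.2 and 40.2 in H, 50.3 and 49.0 in HPP and 33.5 and 34.7 in NPP. HPP was highest in both fractions, and every treated library lay above both N libraries. Over the single comparisons of MDA-MB-231, 17.4% to 33.0% of all genes tested lay above N in this way. MXD4 rose in HPP by 1.09 ± 0.19 (adjusted p = 0.00258) in total and 0.98 ± 0.19 (adjusted p = 0.00305) in polysomal RNA, and both calls held without any 1 library. In H it was at 0.45 ± 0.19 (adjusted p = 0.336) and 0.56 ± 0.19 (adjusted p = 0.145), the latter called with no filter on low counts (0.60, adjusted p = 0.0448), and in NPP at 0.47 ± 0.19 (adjusted p = 0.389) and 0.44 ± 0.19 (adjusted p = 0.324). MXD4 in total RNA of MCF10A was at 84.1 and 101.1 CPM in N, 96.5 and 124 in H, 95.7 and 121 in HPP and 82.8 and 174 in NPP, and the replicates of NPP differed more than the groups did. Its fold change in HPP was 0.23 ± 0.40 (adjusted p = 0.768) in total and −0.28 ± 0.40 (adjusted p = 0.656) in polysomal RNA.

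MXD1 (chr2:69897688-69942945, plus strand) was low in MCF10A, with single total RNA libraries between 1.67 and 7.48 CPM, and there the replicates of HPP and of NPP differed by more than the group means did. In polysomal RNA of MCF10A it was at 1.71 and 2.75 CPM in N, 2.59 and 1.95 in H, 4.44 and 3.68 in HPP and 2.27 and 2.27 in NPP. HPP lay above N there without overlap, as it did for 30.5% of all genes tested. MXD1 in polysomal HPP was at 0.86 ± 0.55 (adjusted p = 0.287). In total RNA of MDA-MB-231 it was at 19.7 and 16.4 CPM in N, 16.9 and 17.2 in H, 20.9 and 14.9 in HPP and 25.9 and 20.97 in NPP. The polysomal values were 12.8 and 13.9 CPM in N, 13.3 and 13.1 in H, 20.7 and 15.0 in HPP and 21.4 and 21.4 in NPP. Of all genes tested in MDA-MB-231, 17.4% to 33.0% lay above N over the comparisons. MXD1 lay above N with HPP and NPP in polysomal RNA of this line, and with NPP in total RNA, where HPP and N overlapped. In polysomal NPP the difference was 0.68 ± 0.19 (adjusted p = 0.103), which was not called, whereas DESeq2 (adjusted p = 0.0481) and edgeR with no filter on low counts (0.0289), with a replicate block (0.0408) and with a block within each fraction (0.0423) called it.

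MNT (chr17:2384073-2401104, minus strand), a broadly expressed repressor that pairs with MAX or MLX and carries an E-box in its promoter window, rose with HPP in both fractions of both lines. In total RNA of MCF10A it was at 13.6 and 10.8 CPM in N, 29.4 and 19.2 in H, 42.6 and 32.5 in HPP and 25.5 and 17.8 in NPP. In polysomal RNA of MCF10A it was at 6.15 and 10.2 CPM in N, 9.09 and 21.1 in H, 23.0 and 39.8 in HPP and 18.2 and 17.2 in NPP. Both HPP and both NPP values lay above N in each fraction, as did both H values in total RNA, whereas H and N overlapped in polysomal RNA. In HPP it rose by 1.62 ± 0.44 (adjusted p = 0.0284) in total and 1.94 ± 0.44 (adjusted p = 0.00993) in polysomal RNA. The first call was lost without any 1 of the 4 total RNA libraries of N and HPP (up to 0.201), and the second without replicate 2 of HPP or replicate 1 of N in polysomal RNA (up to 0.0928). In H it was at 0.99 ± 0.43 (adjusted p = 0.427) and 0.89 ± 0.43 (adjusted p = 0.443).

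MNT in total RNA of MDA-MB-231 was at 11.9 and 11.1 CPM in N, 17.5 and 11.02 in H, 26.8 and 35.4 in HPP and 25.1 and 27.7 in NPP. The polysomal values were 10.4 and 10.2 CPM in N, 13.2 and 13.5 in H, 24.6 and 28.9 in HPP and 22.9 and 19.1 in NPP. Every PP242 library lay above every library without PP242 in both fractions. MNT rose in HPP by 1.43 ± 0.21 (adjusted p = 0.000729) in total and 1.38 ± 0.21 (adjusted p = 0.000465) in polysomal RNA, with no call lost without 1 library, and in NPP by 1.19 ± 0.21 (adjusted p = 0.0185) and 1.03 ± 0.21 (adjusted p = 0.0159). The NPP calls were lost without any 1 of the 4 libraries compared in total RNA (up to 0.243), and without replicate 1 of NPP or either replicate of N in polysomal RNA (up to 0.178).

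MGA (chr15:41621134-41773081, plus strand), the member with the longest transcript and the scaffold of PRC1.6, was called in no comparison with N. MGA in total RNA of MCF10A was at 9.48 and 7.65 CPM in N, 13.8 and 6.10 in H, 10.2 and 2.65 in HPP and 9.40 and 1.30 in NPP. MDA-MB-231 total RNA held MGA at 27.7 and 30.0 CPM in N, 33.1 and 25.0 in H, 25.6 and 30.9 in HPP and 25.8 and 30.9 in NPP. In MCF10A replicate 2 of HPP and of NPP lay below all other total RNA libraries and replicate 1 of both did not, whereas the MDA-MB-231 groups overlapped. Replicate 2 of NPP held 31 counts of MGA and replicate 1 held 364, and the fold change in total RNA of MCF10A under NPP was −0.66 ± 0.79 (adjusted p = 0.824), against 0.14 without replicate 2 of NPP. Among total RNA libraries of MCF10A these 2 had the lowest values of the length measure given above, as the plot of MGA against that measure shows, and the part of coverage in the MGA values was not tested. In MDA-MB-231 the fold changes in HPP were −0.03 ± 0.17 in total and 0.07 ± 0.17 in polysomal RNA.

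**Figure D4:**
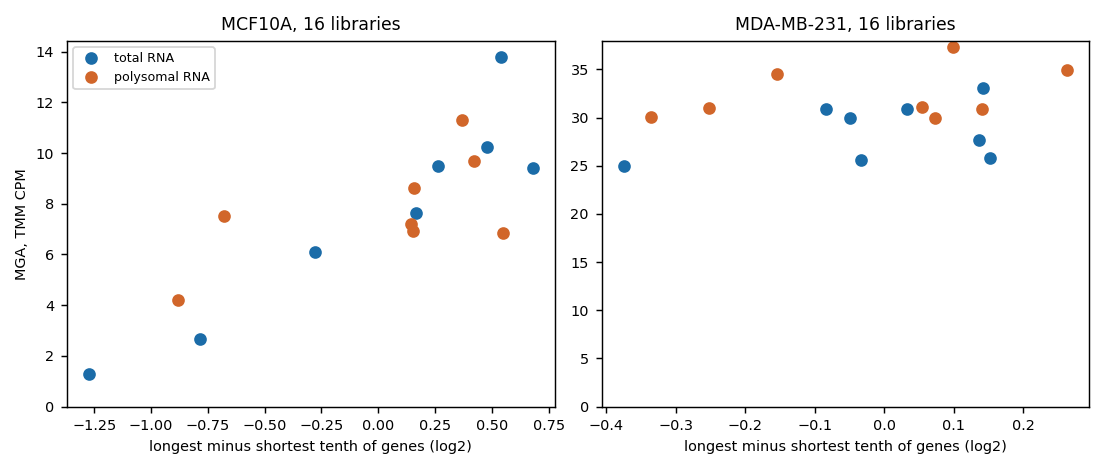
MGA level in CPM (vertical axis) against the median log2 deviation of the longest minus the shortest decile of genes (horizontal axis), 1 point for each of 32 libraries by line and fraction. The total RNA library of MCF10A with 31 MGA counts lies farthest left, at −1.27, and the MDA-MB-231 libraries lie between −0.37 and 0.26.

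MLX (chr17:42567072-42573239, plus strand), which pairs with MXD1, MXD4, MNT and the Mondo proteins, fell in polysomal RNA with HPP in both lines. MLX on MCF10A polysomes was at 158 and 114 CPM in N, 129 and 114 in H, 63.6 and 45.5 in HPP and 67.9 and 67.9 in NPP. In total RNA of MCF10A it was at 96.95 and 111.9 CPM in N, 102.5 and 118 in H, 89.3 and 136 in HPP and 79.3 and 139 in NPP. Polysomal HPP and NPP lay below N and H without overlap, while in total RNA the PP242 groups overlapped N. In HPP MLX fell by 1.32 ± 0.32 (adjusted p = 0.0128) on the log2 scale in polysomal RNA and was at 0.11 ± 0.31 (adjusted p = 0.868) in total RNA, and in NPP it was at −1.0019 ± 0.32 (adjusted p = 0.169) and 0.07 ± 0.31 (adjusted p = 0.957). With a block within each fraction edgeR called the polysomal NPP difference (−0.98, adjusted p = 0.0295). The polysomal HPP call was lost without replicate 2 of HPP or replicate 1 of N (up to 0.139).

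MLX on MDA-MB-231 polysomes was at 115 and 125 CPM in N, 122 and 121 in H, 63.4 and 66.2 in HPP and 67.0 and 75.7 in NPP. In total RNA it was at 97.7 and 109.99 CPM in N, 101.5 and 114 in H, 73.1 and 79.7 in HPP and 77.5 and 77.2 in NPP. Here HPP and NPP lay below N and H in both fractions. MLX fell in HPP by 0.89 ± 0.13 (adjusted p = 0.000305) in polysomal RNA and by 0.44 ± 0.13 (adjusted p = 0.0325) in total RNA, and in NPP by 0.75 ± 0.13 (adjusted p = 0.00439) in polysomal RNA, while total NPP was at −0.42 ± 0.13 (adjusted p = 0.189). The polysomal HPP call held without any 1 library. The total HPP call was kept in 5 of 16 such fits (up to 0.234) and was lost with no filter on low counts (−0.36, adjusted p = 0.183), DESeq2 called total NPP (adjusted p = 0.0455), and the polysomal NPP call was lost without replicate 1 of NPP (up to 0.0734). MLX shares 18.2% of its exon bases with PSMC3IP on the opposite strand.

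Translation efficiency (Te) compares the change on polysomes with the change in total RNA, each relative to the other mRNAs of its fraction. As an interaction term between treatment and fraction, Te was called for no member by edgeR or by DESeq2, and MLX and MXI1 had the members' only unadjusted p under 0.05. This fit ignores that the 2 fractions share cultures, and with a block by culture no member was called either. In MCF10A the unadjusted p was under 0.05 for 0 members in H, 1 in HPP (MLX, −1.42 ± 0.44, adjusted p = 0.694) and 1 in NPP (MLX, −1.07 ± 0.44, adjusted p = 0.990), where 0.0% of all genes were called in H, 0.0% in HPP and 0.0% in NPP. In MDA-MB-231 it was under 0.05 for MXI1 in H (0.70 ± 0.25 (adjusted p = 1.00)) and MLX in HPP (−0.45 ± 0.18 (adjusted p = 1.00)) and for 0 members in NPP, where 0.0148% of genes were called in H, 0.696% in HPP and 0.34% in NPP. The study's methods describe Te as a quotient of the polysomal and total log2 fold changes, while its lists of genes hold their difference, and the difference was used here. Te was called there by a z-score beyond 1.5 together with a polysomal adjusted p, which holds no test of the difference itself. The methods and the lists give the thresholds of 0.05 and 0.10 to the lines in opposite order. The order of the lists, 0.10 in MCF10A and 0.05 in MDA-MB-231, was used here, and the order of the methods gave the same number of member calls, 2 in MCF10A and 0 in MDA-MB-231. By the rule as applied here 1 of 9 members of MCF10A was called in H (MXI1, z = 1.61, where 0.206% of genes were called), 1 in HPP (MLX, z = −1.78, 3.41%) and 0 in NPP (0.259%). The rule called 0 members of MDA-MB-231, where it called 0.0814% of genes in H, 1.13% in HPP and 0.696% in NPP. The z-score was taken over all genes tested, and taken over genes significant on polysomes, which the methods select first, it made 0 calls in MCF10A in place of 2. Without 1 library the z-score ran from 0.85 to 1.62 for MXI1 and from −1.78 to −1.33 for MLX.

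In normoxia MXI1 was the member least represented on polysomes relative to total RNA. In MDA-MB-231 its polysomal level was 1.39 ± 0.18 log2 units below its total level (adjusted p = 0.000395), the only 1 of 9 members called where 13.1% of genes were. The call held without any 1 library and with a block by culture. In MCF10A no member was called by edgeR or DESeq2, where 0.0% of genes were, and 1 member, MXI1, had an unadjusted p under 0.05 (−1.03 ± 0.32, adjusted p = 0.334). Both fractions were scaled to their own totals, so these are levels relative to other mRNAs.

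The response of MXI1 to HPP differed between the lines, and that of no other member did so by this test. In a joint fit of all 32 libraries over 14298 genes, the HPP response of MXI1 in MDA-MB-231 minus that in MCF10A was −1.32 ± 0.36 (adjusted p = 0.0439) in total RNA, 1 of 9 members called where 3.31% of genes were. In polysomal RNA the difference was −1.62 ± 0.36 (adjusted p = 0.0133), 1 of 9 where 3.6% were. The total RNA call was kept in 11 of the 32 fits that left out 1 library (adjusted p up to 0.193) and the polysomal call in 28 (up to 0.0911). The H response of MXI1 differed by −1.08 ± 0.36 (adjusted p = 0.348) in total and −1.33 ± 0.36 (adjusted p = 0.162) in polysomal RNA. No member was called in H by edgeR, with 1 in each fraction at an unadjusted p under 0.05 and MXI1 called by DESeq2 in polysomal RNA, where 0.266% of genes were called in total and 0.329% in polysomal RNA. For NPP no member was called by edgeR or DESeq2, with 2 in each fraction at an unadjusted p under 0.05, where 0.056% of genes were called in total and 0.126% in polysomal RNA. The HPP responses of MXD3 (1.1997 ± 0.43 (adjusted p = 0.152) in total RNA) and MXD4 (1.25 ± 0.46 (adjusted p = 0.147) in polysomal RNA), which were called in MDA-MB-231 and not in MCF10A, did not pass the test of the difference between lines.

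In normoxic total RNA 2 of 9 members differed between the lines where 40.7% of genes did, and line and the sequencing of that line cannot be told apart. MXD1 was higher in MDA-MB-231 by 1.74 ± 0.40 (adjusted p = 0.00156) and MXD4 was lower, at −2.03 ± 0.33 (adjusted p = 4.61e-05), and both calls held without any 1 library. MYC was at −0.48 ± 0.23 (adjusted p = 0.102), MXD3 at −0.66 ± 0.31 (adjusted p = 0.0923) and MGA at 1.28 ± 0.58 (adjusted p = 0.0837). Under other settings MGA was called by DESeq2 (1.38, adjusted p = 0.0361) and by edgeR with the transcript length offset (adjusted p = 0.00704), and MXD3 by edgeR with a replicate block (−0.87, 0.0269).

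Genes that work with or downstream of the network were followed as lists. Of 28 MYC-activated targets, MCF10A had 26 tested and MDA-MB-231 had 27. In polysomal RNA under HPP, 18 of 26 fell and 1 rose in MCF10A, with a median log2 fold change of −1.34 against −0.04 over all genes, and 19 of 27 fell and 2 rose in MDA-MB-231, with a median of −0.70 against 0.01. Over all genes tested there, 11.9% fell and 10.2% rose in MCF10A, and 9.73% fell and 9.71% rose in MDA-MB-231. The list was chosen with earlier results of these data known. In total RNA 14 of 26 fell and 1 rose in MCF10A (median −1.02 against −0.01 over all genes) and 11 of 27 fell and 1 rose in MDA-MB-231 (median −0.47 against −0.05), where 7.47% and 6.91% of all genes fell and 7.43% and 6.31% rose. The MYC mRNA rose in each of these comparisons. RRS1, a ribosome assembly factor, had the lowest fold change of the list in each, at −4.11 in polysomal and −3.41 in total RNA of MCF10A, and −2.19 and −1.92 in MDA-MB-231. SRM (spermidine synthase) fell by 2.63 and 1.16 in polysomal RNA of MCF10A and MDA-MB-231, and ODC1 (ornithine decarboxylase) by 2.27 in polysomal RNA of MCF10A. LDHA, which is also a target of the hypoxia-inducible factors, rose by 1.81 in total RNA of MCF10A and 1.50 in MDA-MB-231, and the transferrin receptor gene TFRC rose by 0.54 in polysomal RNA of MDA-MB-231 while it fell by 2.37 in total RNA of MCF10A. Without 1 library, the number that fell ran from 9 to 20 in polysomal and 4 to 16 in total RNA of MCF10A, and from 8 to 21 and 4 to 12 in MDA-MB-231. In polysomal RNA of MCF10A it was 9 without replicate 1 of N and 10 without replicate 2 of HPP, and in total RNA it was 4 to 6 without any 1 library of N or HPP. In polysomal RNA of MDA-MB-231 it was 8 and 10 without replicate 1 and replicate 2 of HPP and 11 without replicate 1 of N, and in total RNA it was 4 without replicate 2 of N and 5 without either replicate of HPP. The number that rose ran from 0 to 1 in each fraction of MCF10A, and in its polysomal RNA it was 0 except without replicate 1 or replicate 2 of total NPP, and it ran from 1 to 2 in polysomal and 1 to 3 in total RNA of MDA-MB-231. In H, 1 target rose in each fraction and line (LDHA), where 0.977% to 1.78% of all genes rose, and in NPP 1 or 2 fell in each, RRS1 among them, where 0.178% to 1.19% of all genes fell.

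**Figure D5:**
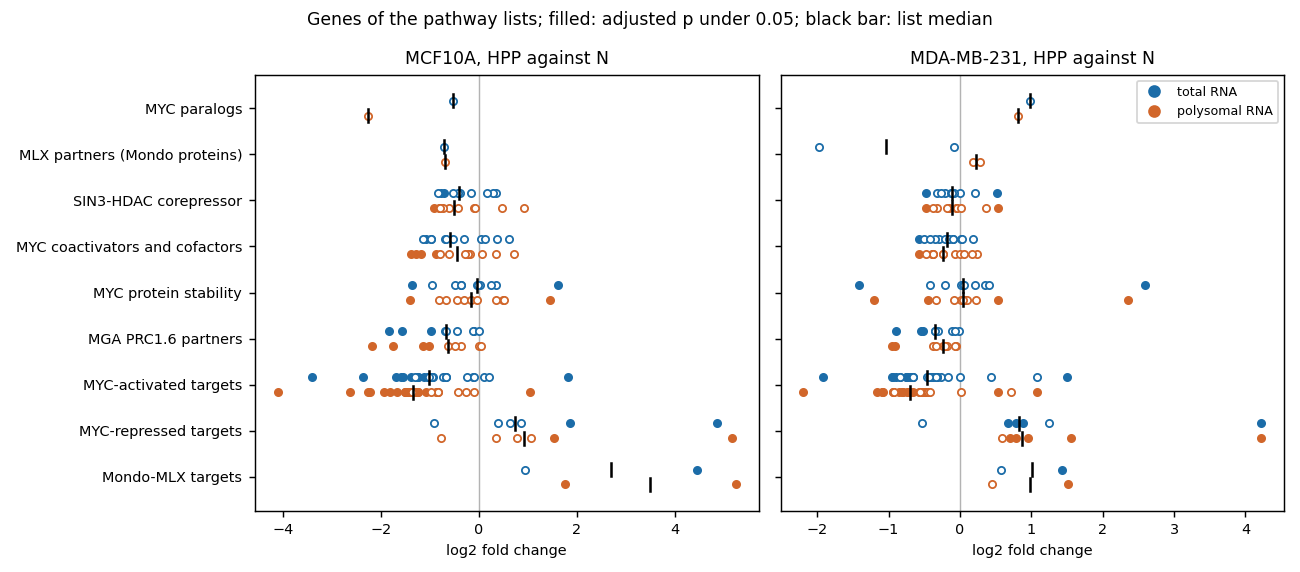
Log2 fold change in HPP against N of each tested gene of the lists (1 point a gene, filled where the adjusted p was under 0.05, black bars for list medians), for both fractions of both lines. The medians of the MYC-activated targets lie between −1.34 and −0.47, and those of the MYC-repressed targets between 0.74 and 0.92.

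Of 7 MYC-repressed targets 6 were tested in each line. In polysomal RNA under HPP, 2 rose in MCF10A (median 0.92) and 5 in MDA-MB-231 (median 0.87), and in total RNA 2 (median 0.74) and 4 (median 0.83) rose, with none of the 6 called lower. All-gene medians in these comparisons were between −0.05 and 0.01, and the shares of all genes that rose were 10.2% and 9.71% in polysomal and 7.43% and 6.31% in total RNA. Without 1 library the counts ran from 1 to 3 and from 2 to 5 in polysomal RNA, and from 1 to 2 and from 1 to 5 in total RNA, of MCF10A and MDA-MB-231. The lowest were reached without replicate 2 of N or of HPP in polysomal RNA of MCF10A, without either replicate of N or replicate 2 of HPP in its total RNA, without replicate 1 of HPP in polysomal RNA of MDA-MB-231 (2) and without replicate 1 of N in its total RNA (1). NDRG1, which is also a hypoxia gene, rose most, by 5.16 in polysomal RNA of MCF10A and 4.23 in MDA-MB-231. The growth arrest gene GADD45A rose by 1.54 and 1.56 there, and GADD45B, a relative of it, by 0.95 in MDA-MB-231. TXNIP, a target of the Mondo proteins with MLX that limits glucose uptake, rose in HPP by 5.24 in polysomal and 4.46 in total RNA of MCF10A, and by 1.52 and 1.44 in MDA-MB-231. It rose in NPP as well, by 3.80 in polysomal RNA of MCF10A and 1.03 in MDA-MB-231. In H, TXNIP rose by 2.67 in total and 2.97 in polysomal RNA of MCF10A, and was not called in MDA-MB-231 (0.32 and 0.17). ARRDC4, the other gene of that list, rose by 1.75 in polysomal RNA of MCF10A in HPP (adjusted p = 0.0446). There a call of the list was lost without replicate 2 of polysomal HPP. The same loss occurred without either replicate of N, H or NPP in polysomal RNA, or of N or H in total RNA.

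Among 11 tested genes that set the stability of the MYC protein, the kinase gene PIM1 rose in HPP in both fractions of both lines, by 1.45 in polysomal RNA of MCF10A and 2.36 in MDA-MB-231, and SKP2, a ubiquitin ligase subunit, fell by 1.41 and 1.21 there. USP28, a deubiquitinase, rose by 0.54 and BIN1 fell by 0.45 in polysomal RNA of MDA-MB-231. Of the 11 genes 1 rose and 1 fell in polysomal RNA of MCF10A, near the 10.2% and 11.9% of all genes, and 2 rose and 2 fell in polysomal RNA of MDA-MB-231, where 9.71% and 9.73% did. In total RNA 1 rose and 1 fell in each line, whereas over all genes of MCF10A 7.43% rose and 7.47% fell, and over those of MDA-MB-231 6.31% rose and 6.91% fell. The polysomal USP28 call of MDA-MB-231 was lost without either replicate of HPP or replicate 1 of N, and the BIN1 call was kept in 8 of 16 such fits. The SKP2 call in total RNA of MCF10A was lost without replicate 2 of HPP or replicate 2 of N. In MCF10A no gene of this list was called higher without replicate 2 of HPP in polysomal RNA, or without replicate 2 of HPP or either replicate of N in total RNA. PIM1 rose in NPP too, by 2.42 in total RNA of MCF10A and 2.13 in MDA-MB-231. Of the 9 partners of MGA in PRC1.6, 4 fell in polysomal and 3 in total RNA of MCF10A in HPP (medians −0.63 and −0.67), and 2 and 3 in MDA-MB-231 (medians −0.24 and −0.34), where 11.9%, 7.47%, 9.73% and 6.91% of all genes fell. Without 1 library these counts ran from 2 to 5 and 2 to 4 in MCF10A and from 1 to 3 and 0 to 3 in MDA-MB-231. The polysomal median of MCF10A ran from −1.25, without replicate 1 of HPP, to −0.54. The polysomal count of MCF10A was 2 without replicate 2 of HPP or replicate 1 of N, and in MDA-MB-231 the polysomal count was 1 without replicate 1 of HPP and the total count 0 without replicate 1 of HPP or replicate 2 of N. PCGF6 fell by 2.18 and E2F6 by 1.75 in polysomal RNA of MCF10A. In polysomal RNA of MDA-MB-231 PCGF6 fell by 0.96 and L3MBTL2 by 0.92. Of the 10 SIN3 and deacetylase genes, HDAC2 and RBBP4 fell in HPP in both fractions of MCF10A, by 0.92 for HDAC2 in polysomal RNA, and in MDA-MB-231 SIN3A rose by 0.53 and RBBP4 fell by 0.48 in polysomal RNA. These calls are 2 of 10 in each fraction of MCF10A, where 11.9% of all genes fell in polysomal and 7.47% in total RNA, and 1 of 10 in each direction in polysomal RNA of MDA-MB-231, which is near the 9.71% of all genes that rose and the 9.73% that fell. Each of these counts reached 0 without 1 library. Of 12 MYC cofactors, 4 fell in polysomal and 2 in total RNA of MCF10A in HPP, and 2 and 1 in MDA-MB-231, with WDR5, a chromatin adaptor of MYC, called in each (polysomal −1.19 and −0.57). These counts are 4 and 2 of 12 against 11.9% and 7.47% of all genes that fell in MCF10A, and 2 and 1 of 12 against 9.73% and 6.91% in MDA-MB-231, the last near the share over all genes. Each reached 0 without 1 library, which in polysomal RNA of MCF10A was replicate 2 of HPP. Of the 2 paralogs MYCN and MYCL 1 was tested in each line, and of the 2 Mondo genes MDA-MB-231 had both tested and MCF10A had 1, and none was called in HPP.

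The genes whose levels followed MYC most closely in both lines, by the smaller of the 2 Pearson correlations of log2 CPM over the 16 libraries of each line among 12373 genes, were PIM1 (r = 0.955 in MCF10A and 0.947 in MDA-MB-231), RNF19B (0.964 and 0.935) and HBP1 (0.942 and 0.915). For MXI1 they were RSPH3 (0.938 and 0.930), MTMR11 (0.922 and 0.902) and PAQR5 (0.895 and 0.878). These values describe libraries that share treatments, cultures, fractions and depth, and they carry no test.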

How the data were processed

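The authors sequenced TruSeq libraries as paired ends and mapped the reads with STAR v2.5.1b to the GENCODE v24 annotation, and RSEM v1.2.28 gave an expected count for each gene. The methods name GRCh38 and the labels GRCh37. Strand was not stated. The deposited values are these expected counts as whole numbers, not normalised, and 0 columns were without a sample.

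For each line the 16 libraries were fitted in 8 groups in R 4.3.3 with edgeR 4.0.16 (filterByExpr, TMM, quasi-likelihood F test, limma 3.58.1) on protein-coding genes. Adjusted p is Benjamini-Hochberg over all genes tested, with a threshold of 0.05, and errors of fold changes are SE. Te was the polysomal minus the total log2 fold change. Differences between lines came from a joint fit of all 32 libraries over 14298 genes. Levels per kb used merged exons of the GRCh38 annotation, matched by gene ID. Log2 CPM used a prior count of 2. Tables and figures used Python 3.11.15, pandas 2.3.3, numpy 2.4.6 and matplotlib 3.10.9. The edgeR test of HPP against N in total RNA of each line was tried on simulated counts. The other steps were not tested in this way. No permutation p is given for a single gene, since 2 libraries against 2 cannot go below 0.333. Where nothing beyond the label shows that replicates are separate cultures, p-values measure the spread between these libraries.

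The members and the lists were chosen with earlier results of these data known. All 9 members are named. From each list the text names at most 3 genes called up and 3 called down per fraction and line, by the size of the fold change, in the treatment with most calls. The MYC cofactors are an exception, where WDR5 was named as called in each fraction and line. MYCBP (−1.38) and RUVBL1 (−1.29) fell further than WDR5 in polysomal RNA of MCF10A in HPP. For MYC and MXI1 it names the 3 genes with the highest smaller correlation over both lines. Values of a named gene in another treatment, and the paralogs, were added after the values were seen.

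To check whether replicate numbers pair libraries, the differences between replicate 1 and replicate 2 were correlated across genes. In total RNA of MCF10A all 6 pairs of groups were over 0.1 (0.283 to 0.778), in its polysomal RNA 3 of 6 were, and in MDA-MB-231 19 of 28 were (−0.187 to 0.348), so the numbers were taken to pair libraries in total RNA of MCF10A alone. There replicate 1 had the higher length measure in every treatment, and a pairing cannot be told apart from this difference. Between total and polysomal RNA of one culture, 1 of 4 was over 0.1 in MCF10A (−0.25 to 0.214) and 3 of 4 in MDA-MB-231 (0.00239 to 0.348).

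Alternatives were DESeq2 1.42.0, RLE size factors, no filter on low counts, all gene classes, only the libraries compared, a replicate block (also within each fraction or by culture), an adjusted p under 0.10, other z-score rules and each library left out in turn. An offset for transcript length was added after the data were seen. A first run of the left-out fits repeated the filter on low counts in each, and the genes were then held at those of the full fit. A group left with 1 library is assumed there to vary like the other groups.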

Additional observations from a re-analysis of the deposited data

Results flagged for a closer look

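The response of MXI1 to HPP differed between the lines by the test of the difference itself. It was lower in MDA-MB-231, where the difference from MCF10A was −1.32 on the log2 scale in total RNA and −1.62 in polysomal RNA. The smaller of both calls, in total RNA, was lost when genes of all classes or genes with low counts were added to the fit.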

How the results depend on the processing

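A call here is 1 member in 1 of 3 treatments, of 27 such pairs in each fraction and line. In polysomal RNA of MCF10A 6 calls became 3 when only the libraries compared were fitted, without those of MYC in HPP and NPP and of MXI1 in H, and 10 with a replicate block within each fraction, which added MXI1, MXD3, MNT and MLX in NPP. In total RNA of MDA-MB-231 8 calls became 5 with only the libraries compared, without those of MXD3 and MNT in NPP and of MLX in HPP. That fit also lost the calls of MYC in HPP in total RNA of MCF10A (adjusted p = 0.0538) and of MLX in NPP in polysomal RNA of MDA-MB-231 (0.0558). The call of a line difference in total RNA (1) was lost with all gene classes (0) and with no filter on low counts (0), and DESeq2 called 2 in polysomal RNA in place of 1. At an adjusted p under 0.10, 4 members in place of 2 differed between the lines in normoxic total RNA. A z-score taken over significant genes made 0 calls for Te in MCF10A in place of 2. The cause of these differences was not tested.

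With each library left out in turn, the calls ran from 1 to 5 in total and 2 to 8 in polysomal RNA of MCF10A, from 4 to 8 and 7 to 10 in MDA-MB-231, from 0 to 0 for the Te interaction in both lines, from 0 to 2 for the z-score rule in MCF10A and 0 to 0 in MDA-MB-231, from 0 to 2 and 0 to 1 for line differences in total and polysomal RNA, from 2 to 3 in normoxic total RNA, and from 0 to 0 in MCF10A and 1 to 1 in MDA-MB-231 for polysomal against total RNA. Total RNA of MCF10A had 1 call without replicate 1 or replicate 2 of N and 2 without replicate 2 of HPP, and its polysomal RNA had 2 without replicate 1 of N. Total RNA of MDA-MB-231 had 4 without replicate 1 or replicate 2 of N and 5 without replicate 2 of NPP. With the filter on low counts repeated in each such fit, the z-score rule made 0 to 1 calls in MCF10A.

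With the replicate number as a block over all 16 libraries of a line, there were 4 calls in total and 7 in polysomal RNA of MCF10A and 9 in total RNA of MDA-MB-231. In MDA-MB-231 19 of 28 pairs of groups correlated over 0.1, and in polysomal RNA of MCF10A 3 of 6 did. The evidence that replicate numbers pair libraries is therefore incomplete there. In total RNA of MCF10A a pairing cannot be told apart from the difference in the length measure between replicates. With the offset for transcript length, chosen after seeing the data, there were 5 calls in total and 7 in polysomal RNA of MCF10A. No fold change of a called member turned its sign under any alternative. The lowest counts of MXD1 and MGA, 40 and 31, were both in replicate 2 of total RNA in NPP of MCF10A. That library held 31922664 counts in all and replicate 1 held 35245770, and the cause of the low values was not tested.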
